A study of Homo sapiens with 6 samples.

Results

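Guanylate-binding proteins (GBP1 to GBP5) and apolipoprotein L genes (APOL1, APOL2, APOL3, APOL4 and APOL6) were described in MCF10A cells that carry GIRK1, a subunit of G-protein activated potassium channels encoded by KCNJ3. The members are 10 genes named by symbol, all of them found among the 20802 genes measured, and their choice rests on gene symbols, made with earlier results of these data known. The MCF10A line is a long-established benign model of human mammary epithelium. Libraries came from the untransfected parental line (wt, 2 libraries), from cells stably transfected with an eGFP vector (eGFP, 2 libraries) and from cells stably transfected with the same vector carrying the human GIRK1 coding sequence (GIRK1, 2 libraries). Both transfected lines were selected with G418 and sorted on eGFP fluorescence, and the wt cells had neither, so wt differs from the other groups in vector, drug and sort as well. Whether the sorted cells were cloned is not given in the sources used here. The labels name no treatment in any group. The methods count 2 replicates per line, while the design text speaks of 2 lines each, and neither says whether the libraries of a group came from separate cultures, so p-values measure the spread between these libraries, which may be technical.

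Expression was measured by Ion AmpliSeq Transcriptome sequencing, which amplifies a single short stretch of each gene's cDNA (its amplicon) and counts the reads. A level is given in RPM, the reads of a gene per 1000000 reads of its library. Amplicons differ in how well they amplify, so levels are compared between libraries and not between genes. Totals ran from 2506120 to 16040556 reads, and 3 reads, taken as the smallest countable level, correspond to between 0.187 RPM (wt replicate 2) and 1.20 RPM (wt replicate 1). PCR reads carry no molecular identifiers, so these floors and all counting intervals cover counting error only. KCNJ3 had 2408 and 3677 reads in the GIRK1 libraries, 0 in both eGFP libraries and in wt replicate 2, and 48 in wt replicate 1. The library labelled wt replicate 1 stood apart from the other 5: between 38.5% and 39.4% of 9091 well-covered genes were at least 2-fold away from each of them. It had 12796 reads of TFF1 and 481 of ESR1, luminal markers with 0 reads in the others, and 2 reads of the basal keratin KRT5, against 61946 in wt replicate 2. It is therefore shown apart and enters no comparison. Of the remaining controls, eGFP replicate 1 was the shallowest, with 5126930 reads, and 10.4% of the same genes were at least 2-fold away from eGFP replicate 2, against 1.13% between eGFP replicate 2 and wt replicate 2. The names of the deposited data give both GIRK1 libraries a tag that is absent from the rest, and that tag and the condition cannot be told apart. In bulk RNA, more cells expressing a gene and more RNA per cell cannot be told apart either.

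Guanylate-binding proteins are large GTPases of the dynamin superfamily that are induced by interferons. They assemble on the surface of intracellular bacteria and on pathogen vacuoles, break open these compartments and promote caspase-4 and gasdermin D dependent cell death. Apolipoproteins L are lipid- and membrane-binding proteins that are also interferon-inducible. APOL1 is secreted into serum and kills trypanosomes, and APOL3 is a cytosolic protein that dissolves the membranes of bacteria after guanylate-binding proteins have damaged their coat. Interferon-γ signals through the receptor subunits IFNGR1 and IFNGR2 and the kinases JAK1 and JAK2, and it activates genes through gamma-activated sites (GAS). Type I interferons act mainly through the interferon-stimulated response element (ISRE), to which the interferon regulatory factor IRF1 can bind too.

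The members lie in 2 clusters. GBP1 to GBP5 occupy 266 kb of chromosome 1, from 89006666 to 89272804, all on the minus strand (GRCh38, GENCODE annotation). The APOL members occupy 619 kb of chromosome 22, from 35648395 to 36267530, with APOL6 and APOL1 on the plus strand and APOL3, APOL4 and APOL2 on the minus strand. GBP1 (chromosome 1, 89052319 to 89065360) was read on transcript NM_002053, and APOL6 (chromosome 22, 35648395 to 35668409) on NM_030641. GBP1, GBP2 and GBP3 are close in sequence, as are several of the APOL genes, and how the mapping divided reads between near-identical copies is not given in the sources used here, so members of one family are less certain one by one than as a family.

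Promoter sequences were at hand for 3 of the 10 members, GBP1, GBP3 and GBP4. They are shown because their genes are neighbours with unlike differences between GIRK1 and the controls, and each holds a match to an interferon-responsive motif. The sequences are RefSeq's for GRCh38.p14, written 5′ to 3′ on the minus strand, at chr1:89065209-89065458 for GBP1, chr1:89022855-89023116 for GBP3 and chr1:89198937-89199192 for GBP4. Each begins 250 bases before the annotated start, and GBP3 runs 12 and GBP4 6 bases past it. Capitals mark matches to the ISRE core, GAAANNGAAA, and to the GAS motif, TTCNNNGAA, each searched on both strands.
GBP1: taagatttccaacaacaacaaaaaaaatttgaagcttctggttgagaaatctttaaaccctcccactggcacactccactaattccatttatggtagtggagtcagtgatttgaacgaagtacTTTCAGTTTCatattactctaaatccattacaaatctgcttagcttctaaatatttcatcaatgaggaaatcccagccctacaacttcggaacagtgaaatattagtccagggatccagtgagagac
GBP3: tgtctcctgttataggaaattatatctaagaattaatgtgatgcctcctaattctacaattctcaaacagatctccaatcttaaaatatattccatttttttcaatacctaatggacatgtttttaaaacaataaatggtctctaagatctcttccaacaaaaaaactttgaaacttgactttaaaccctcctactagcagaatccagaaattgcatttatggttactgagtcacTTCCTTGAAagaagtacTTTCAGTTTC
GBP4: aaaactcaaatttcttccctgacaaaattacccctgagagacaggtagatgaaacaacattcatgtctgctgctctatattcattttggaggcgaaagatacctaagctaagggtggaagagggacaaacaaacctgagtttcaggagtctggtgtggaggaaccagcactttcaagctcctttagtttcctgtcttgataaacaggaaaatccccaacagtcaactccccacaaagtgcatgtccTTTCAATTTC
The ISRE core was read as TTTCAGTTTC on the reverse strand in GBP1, from 127 to 118 bases before the start, and with the same letters in GBP3, from base 3 to base 12 of the transcript. In GBP4 it was TTTCAATTTC, from 4 bases before the start to base 6 after it. GBP3 alone of these promoters had a GAS match, TTCCTTGAA, from 15 to 7 bases before the start, and it does not overlap the ISRE core. In windows of 300 bases around all 35116 RefSeq starts, 3.57% held the ISRE core, 7.66% the GAS motif and 0.439% both. A match is a description of the letters and not evidence of binding. Starts here are RefSeq's. The GENCODE models of GBP1 and GBP3 begin further upstream, inside the windows shown, so that the matches of both genes lie within the model, and that of GBP4 begins downstream of its match.

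**Figure D1:**
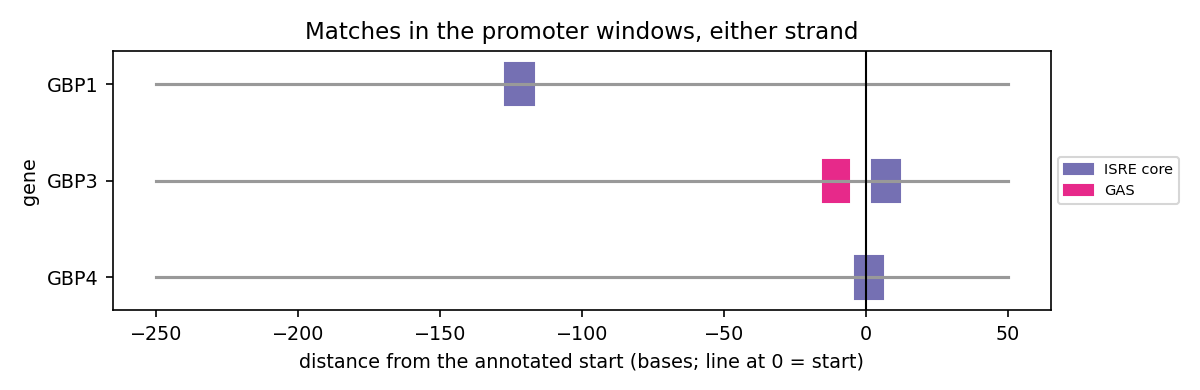
Positions of motif matches in the promoter windows of GBP1, GBP3 and GBP4, in bases from the annotated start (horizontal axis; vertical line at the start). Blocks mark the ISRE core (purple) and the GAS motif (pink); the GBP1 match lies 127 to 118 bases before the start, and those of GBP3 and GBP4 lie at it.

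Among the guanylate-binding proteins, GBP1 was well above every control in both GIRK1 libraries, GBP2 and GBP3 were counted in all of them at closer levels, and GBP4 and GBP5 were barely counted. GBP1, the best studied of the interferon-induced guanylate-binding proteins and the one that coats cytosolic Gram-negative bacteria, had 113 reads in wt replicate 2, 55 and 78 in eGFP replicates 1 and 2, and 428 and 516 in GIRK1 replicates 1 and 2. These counts are 7.04 RPM in wt replicate 2, 10.7 and 7.62 RPM in eGFP, and 38.5 and 49.9 RPM in GIRK1. The groups did not overlap, and the 6 pairings of a GIRK1 with a control library gave ratios between 3.59 and 7.08. Over the 11389 genes tested against the 3 controls, 21.6% had both GIRK1 libraries above all 3. The mean was 44.2 ± 8.02 RPM in GIRK1 and 9.17 ± 2.20 RPM in eGFP (SD, n = 2 each).

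GBP2, a partner of GBP1 on bacterial and vacuolar membranes, had 134 reads in wt replicate 2, 47 and 66 in eGFP, and 208 and 124 in GIRK1, which is 8.35, 9.17, 6.45, 18.7 and 12.0 RPM. Both GIRK1 libraries were above all 3 controls, but GIRK1 replicate 2 was only 1.31 times the highest control. GBP3 had 77 reads in wt replicate 2, 53 and 39 in eGFP, and 100 and 124 in GIRK1, or 4.80, 10.3, 3.81, 9.00 and 12.0 RPM. Here the groups overlapped: eGFP replicate 1 was above GIRK1 replicate 1. GBP5, a Golgi-associated member, had 2 reads in wt replicate 2, 0 in both eGFP libraries, and 4 and 10 reads in GIRK1 (0.360 and 0.967 RPM). Only the GIRK1 libraries reached the floor. GBP4 had 0 reads in all 3 controls and 1 and 3 reads in GIRK1, which is at or under the floor of every library and gives no fold change against eGFP.

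**Figure D2:**
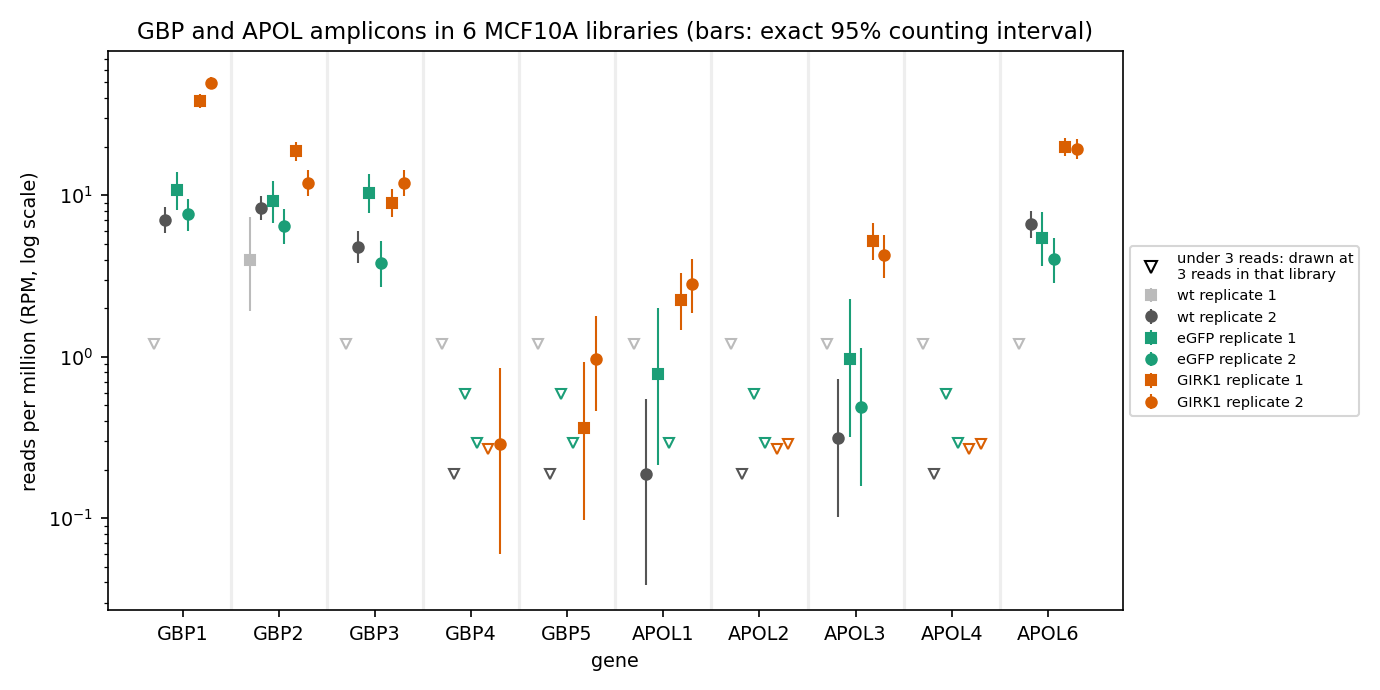
Level of each member (RPM, log scale) in each of the 6 libraries, with the exact 95% counting interval as bars; open triangles stand for fewer than 3 reads and are drawn at the level of 3 reads in that library. GBP1 (38.5 and 49.9 RPM) and APOL6 (20.0 and 19.4 RPM) in GIRK1 lie clear of the controls, while GBP3 overlaps them and APOL2 and APOL4 lie under 3 reads throughout.

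In the APOL family, APOL6, APOL3 and APOL1 were above every control in both GIRK1 libraries, as were 21.6% of 11389 genes tested. APOL2 and APOL4 were not measurable. APOL6, an intracellular member linked to cell death, had 106 reads in wt replicate 2, 28 and 41 in eGFP, and 222 and 201 in GIRK1. This is 6.61 RPM in wt replicate 2, 5.46 and 4.01 RPM in eGFP, and 20.0 and 19.4 RPM in GIRK1, with single-library ratios between 2.94 and 4.99. The GIRK1 libraries were nearly equal (19.7 ± 0.396 RPM, SD, n = 2), and the eGFP mean was 4.73 ± 1.03 RPM.

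APOL3, the cytosolic membrane-dissolving member, had 5 reads in each of the 3 controls and 58 and 44 in GIRK1, which is 0.312 RPM in wt replicate 2, 0.975 and 0.489 RPM in eGFP, and 5.22 and 4.25 RPM in GIRK1. The controls were near the floor, and the pooled ratio to eGFP was 7.30, with an exact 95% counting interval of 3.81 to 15.7. APOL1, the secreted trypanosome-killing protein, had 3 reads in wt replicate 2, 4 and 0 in eGFP, and 25 and 29 in GIRK1 (2.25 and 2.80 RPM). Its pooled ratio was 9.67 to eGFP, with a counting interval of 3.56 to 36.8, and 13.5 to wt replicate 2, with an interval of 4.37 to 67.3. APOL2 had 1 read in eGFP replicate 1, 2 reads in GIRK1 replicate 2 and 0 elsewhere, and APOL4 had 0 reads in all 6 libraries.

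The members under 3 reads in all 6 libraries were therefore APOL2 and APOL4, and GBP4 and GBP5 joined them when the 3 controls were considered alone. GBP1, GBP2, GBP3 and APOL6 had at least 10 reads in each of the 5 libraries compared. In wt replicate 1, 9 of the 10 members had 0 reads, and GBP2 had 10 (3.99 RPM). At the lowest level of the other controls, that library's depth would have given 17.7 reads of GBP1, 16.2 of GBP2, 9.55 of GBP3 and 10.0 of APOL6. For APOL3 the same reckoning gives 0.781 reads, so a 0 there was not distinguishable from the level of the controls.

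Summed over the family, the GBP amplicons reached 66.7 and 75.1 RPM in GIRK1, against 30.2 and 17.9 RPM in eGFP and 20.3 RPM in wt replicate 2. The APOL amplicons reached 27.5 and 26.7 RPM in GIRK1, against 7.41 and 4.50 RPM in eGFP and 7.11 RPM in wt replicate 2. The make-up of the GBP reads differed too: GBP1 supplied 57.8% and 66.4% of them in GIRK1 (exact 95% counting intervals 54.1 to 61.3% and 63.0 to 69.7%), against 35.5% and 42.6% in eGFP (28.0 to 43.6% and 35.4 to 50.1%) and 34.7% in wt replicate 2 (29.5 to 40.1%). APOL6 supplied 72.8% of the APOL reads in both GIRK1 libraries, 73.7% and 89.1% in eGFP and 93.0% in wt replicate 2, with counting intervals of 67.4 to 77.7% and 67.2 to 78.0% in GIRK1 and 56.9 to 86.6% and 76.4 to 96.4% in eGFP. Both GIRK1 shares were below all of the controls, but their intervals overlapped those of both eGFP libraries.

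**Figure D3:**
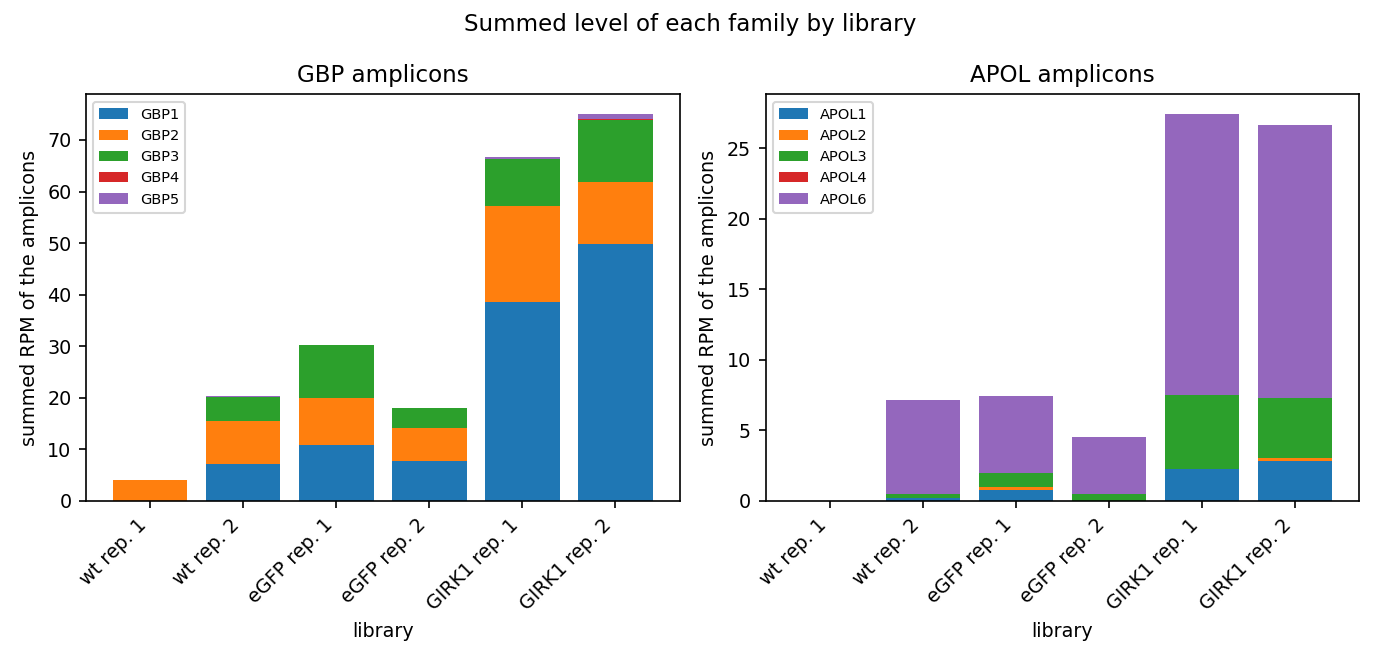
Summed level of the GBP amplicons (left) and the APOL amplicons (right) in each library, in RPM on a linear axis from 0, with each gene as a coloured segment. Both sums are highest in the GIRK1 libraries (66.7 and 75.1 RPM for GBP, 27.5 and 26.7 RPM for APOL), and GBP1 is the segment that differs most in height; segments of different genes are not comparable in absolute terms.

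The comparison of GIRK1 with eGFP is the one the study made, and it asks what the channel subunit adds to a transfected, sorted cell. Of the 10 members, 7 passed the filter on low counts, and 2 of these rose in GIRK1: GBP1 and APOL6. GBP1 was higher by 2.24 ± 0.31 on the log2 scale (SE), with an adjusted p of 0.025, and APOL6 by 2.04 ± 0.32, with an adjusted p of 0.0356 (edgeR's quasi-likelihood test, Benjamini-Hochberg over all genes tested). Over all 11779 genes tested, 89 were called higher, which is 0.756%, and the median difference was 0.02. APOL3 differed by 2.74 ± 0.60 (adjusted p = 0.0839) and APOL1 by 3.03 ± 1.14 (adjusted p = 0.222), larger point estimates than that of GBP1 from far fewer reads, and neither passed. APOL3 passed in 5 of 12 alternatives, among them DESeq2 (adjusted p = 0.042) and the fit without a low-count filter (edgeR, adjusted p = 0.0123). It did not pass with all 6 libraries (edgeR, adjusted p = 0.905) or with only the 4 libraries of eGFP and GIRK1 (edgeR, adjusted p = 0.0781). Leaving out 1 library at a time gave differences of APOL3 from 2.165 to 3.269. GBP2 differed by 0.95 ± 0.36 (adjusted p = 0.226), with a 95% interval of 0.09 to 1.80, and GBP3 by 0.56 ± 0.52 (adjusted p = 0.588), with an interval of −0.66 to 1.79. GBP5 entered the test only through its reads in GIRK1 and did not pass (edgeR, adjusted p = 0.223). Its mean in GIRK1 was 1.13 times the higher of the eGFP floors (3 reads in replicate 1). That mean, 0.663 RPM, lay under the upper counting limit of 0 reads in eGFP replicate 1, 0.720 RPM, so no least fold change is given. APOL1 and APOL3, with at most 5 reads in any control, likewise entered through GIRK1, and GBP4, APOL2 and APOL4 were not tested. Without eGFP replicate 1, 6 of the 7 were called, all but GBP5, beside 3.68% of all genes. Without eGFP replicate 2 the count was 3, beside 11.7% of all genes, and GBP1 alone was called without GIRK1 replicate 1 (beside 0.901%) and without GIRK1 replicate 2 (beside 0.737%). With wt replicate 1 added to the fit the count was 0, beside 0%, and by DESeq2 it was 3, beside 1.93%.

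The 2-fold rule of the study's methods, taken here as a 2-fold difference of mean RPM and a coefficient of variation under 0.7 within each group, was met by GBP1, APOL3 and APOL6, that is 3 members, beside 3.01% of all 20802 genes. GBP2 fell just short with a ratio of 1.97. APOL1 had a ratio of 6.48 but a coefficient of 1.41 in eGFP, where its reads were 4 and 0.

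Against wt replicate 2, the untransfected control, none of the 7 members tested passed. GBP1 differed by 2.67 ± 0.41 (adjusted p = 0.0816), APOL3 by 3.90 ± 0.79 (adjusted p = 0.213), APOL1 by 3.69 ± 1.37 (adjusted p = 0.613) and APOL6 by 1.60 ± 0.38 (adjusted p = 0.334). This group is 1 library, assumed to vary like the others, and 0.195% of 11779 genes were called higher. At an unadjusted p below 0.05, 4 members passed (GBP1, APOL1, APOL3 and APOL6), beside 7.38% of all genes in either direction, and DESeq2 called 2, GBP1 and APOL3, beside 0.705% called higher. GBP2 (0.90 ± 0.44), GBP3 (1.15 ± 0.64) and GBP5 (2.32 ± 1.42) passed in neither way. The count was 0 without GIRK1 replicate 2 (beside 0.24% of all genes), 4 without eGFP replicate 1 (beside 2.5%) and 4 without eGFP replicate 2 (beside 1.93%), and it was 1 without GIRK1 replicate 1 (beside 0.386%).

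With eGFP and wt replicate 2 taken as 3 control libraries, 3 of the 6 members tested rose in GIRK1. GBP1 was higher by 2.38 ± 0.27 (adjusted p = 0.0113), APOL3 by 3.15 ± 0.53 (adjusted p = 0.0465) and APOL6 by 1.85 ± 0.27 (adjusted p = 0.0302), beside 0.799% of 11389 genes called higher. GBP2 (0.93 ± 0.30, adjusted p = 0.175), GBP3 (0.75 ± 0.47, adjusted p = 0.428) and APOL1 (3.32 ± 0.89, adjusted p = 0.13) did not pass. All of these comparisons share the GIRK1 libraries, and this one shares its controls with both of the others. APOL1 and APOL3 entered this test, too, through their reads in GIRK1, so for them a higher level was built into being tested. With at least 10 reads required in every library, 4 members were tested and 2 called, GBP1 and APOL6, beside 0.758% of all genes. Of those 4, GBP1, GBP2 and APOL6 had both GIRK1 libraries above all 3 controls and GBP3 did not. Over the wider set of 11389 genes, tested without that requirement, 21.6% did, and the share under it was not computed. Without eGFP replicate 1 all 6 were called, beside 4.3% of genes, and the count was 0 without eGFP replicate 2 (beside 0.248%), without GIRK1 replicate 1 (0.258%), without GIRK1 replicate 2 (0.146%) and with wt replicate 1 added (0.0606%).

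The controls were also compared with each other. Between eGFP and wt replicate 2, 0 of 7 members passed by edgeR (0 at an unadjusted p below 0.05, and 0 by DESeq2), and 0% of 11779 genes were called by edgeR, with 418 at an unadjusted p below 0.05 and 5 by DESeq2. Without eGFP replicate 2, 704 genes were called higher and 564 lower in the remaining eGFP library (10.8% of all tested), with 0 members among them. GBP1 was 0.43 ± 0.38 higher in eGFP and APOL6 was −0.44 ± 0.38, differences with intervals of −0.48 to 1.33 and −1.33 to 0.45. The eGFP libraries differed from each other most, by coefficient of variation among the members with at least 10 reads in each library, in GBP3 (10.3 and 3.81 RPM, 0.652).

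**Figure D4:**
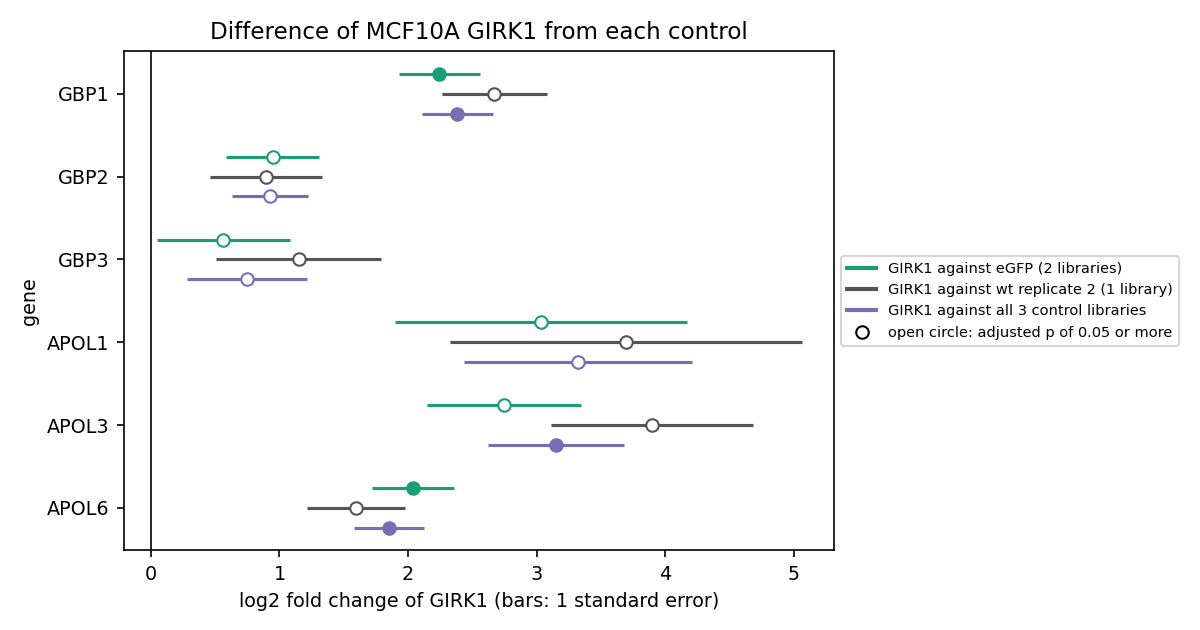
Log2 fold change of GIRK1 against eGFP, against wt replicate 2 and against all 3 control libraries for the 6 members with reads in eGFP and in the tests (bars, 1 SE; filled circles, adjusted p below 0.05). GBP1 (2.24, 2.67 and 2.38) and APOL6 (2.04, 1.60 and 1.85) have short bars, and APOL1 (3.03, 3.69 and 3.32) has long ones.

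Relatives of the 2 families outside the members showed no call. GBP6, GBP7 and APOL5 had 0 reads in all 6 libraries. The atlastins, GTPases of the endoplasmic reticulum that belong to the same superfamily as the GBP family, were counted in every library, save that ATL1 had only 1 read in wt replicate 1. ATL1 had 131 reads in wt replicate 2, 61 and 89 in eGFP, and 70 and 46 in GIRK1 (8.17, 11.9, 8.70, 6.30 and 4.45 RPM), and differed from eGFP by −0.97 ± 0.37 (adjusted p = 0.223). ATL2 (0.27 ± 0.21) and ATL3 (0.21 ± 0.21) lay close to 0. By edgeR 0 of these 3 passed against eGFP, with 1 at an unadjusted p below 0.05 (ATL1) and 0 by DESeq2.

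In the interferon-γ signalling chain, the receptor subunits, the kinases and the regulatory factors IRF1 and IRF2 were not called. IFNG itself, the ligand, had 0 reads in all 6 libraries. The receptor subunit IFNGR1 was at 61.9 RPM in wt replicate 2, 31.4 and 56.5 RPM in eGFP and 98.3 and 71.7 RPM in GIRK1, above every control in both, and differed from eGFP by 0.92 ± 0.30 (adjusted p = 0.177). IFNGR2 differed by −0.18 ± 0.23, JAK1 by 0.66 ± 0.21 (adjusted p = 0.162) and JAK2 by 0.21 ± 0.43. IRF1, an interferon-γ-induced factor and a known activator of GBP promoters, was at 12.7 RPM in wt replicate 2, 16.2 and 10.2 RPM in eGFP, and 27.7 and 23.4 RPM in GIRK1. IRF1 lay above every control in both GIRK1 libraries, as did IFNGR1, JAK1, IRF2 and 21.6% of 11389 genes tested. It differed from eGFP by 0.92 ± 0.32 (edgeR, adjusted p = 0.196). IRF2, which competes with IRF1 for its sites, differed by 0.32 ± 0.25, and the phosphatases PTPN2 and PTPN6, which act on this pathway, by 0.02 ± 0.32 and −0.06 ± 0.29. Of the 8 tested genes of the chain reported here, 0 were called against eGFP by edgeR, with 3 at an unadjusted p below 0.05 (18.8% of all genes were) and 0 by DESeq2, and the median was 0.27 against 0.02 over all genes. Without eGFP replicate 1 the count was 1 (IRF1).

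Other interferon targets were placed beside the members. Of 23 genes listed here as interferon-γ targets, which need not respond to that ligand alone, 13 were tested against eGFP. Of these 2 rose, beside 0.756% of all genes: TAP1, a peptide transporter of antigen presentation, and PSMB9, an immunoproteasome subunit. At an unadjusted p below 0.05 there were 9, DESeq2 called 7 higher, and 7 were called without eGFP replicate 1. Against the 3 controls 4 of 12 were called, TAP1, LAP3, the class I regulator NLRC5 and the immunoproteasome subunit PSMB8. Genes of this list not tested against eGFP had at most 2 reads in each of the 5 libraries compared, so the list is described only by its counted genes. Of the 13 tested against eGFP, 10 had a positive difference, and the lowest difference was −1.44. The median difference from eGFP was 1.16, and against wt replicate 2 it was 1.37 with 0 called by edgeR, 7 at an unadjusted p below 0.05 and 2 by DESeq2. LAP3, an aminopeptidase, was at 107 RPM in wt replicate 2, 88.7 and 114 RPM in eGFP, and 194 and 235 RPM in GIRK1. It differed from eGFP by 1.05 ± 0.23 (adjusted p = 0.0835). CXCL10, a chemokine, was at 1.06 RPM in wt replicate 2, 0.195 and 3.42 RPM in eGFP, and 10.7 and 15.9 RPM in GIRK1, a difference of 2.68 ± 0.75 (adjusted p = 0.138). WARS, a tryptophan tRNA synthetase, overlapped between groups, with 336 RPM in wt replicate 2, 60.7 and 264 RPM in eGFP, and 331 and 442 RPM in GIRK1. HLA-DPA1, a class II antigen presentation gene, had 7 reads in wt replicate 2, 0 in eGFP, and 7 and 17 in GIRK1.

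Of 29 type I interferon targets, 28 were tested against eGFP, 24 rose and 0 fell, beside 0.756% of all genes called higher. The median was 4.53, or 3.75 when genes with 0 reads in eGFP are set against the higher eGFP floor. With all 6 libraries 0 were called against eGFP, beside 0%. Against the 3 controls 22 of 27 were called, beside 0.799% of 11389 genes. The median difference from wt replicate 2 was 4.08. Genes such as SAMD9L and XAF1, with at most 6 reads in any control, entered the test through GIRK1, so a higher level was built in for them. IFI6, a mitochondrial and endoplasmic reticulum protein with antiviral action, was at 25.1 RPM in wt replicate 2, 35.9 and 15.6 RPM in eGFP, and 6613 and 9858 RPM in GIRK1, a difference of 8.28 ± 0.58 (adjusted p = 0.0021). BST2, which tethers budding viruses, was at 125 RPM in wt replicate 2, 363 and 254 RPM in eGFP, and 799 and 738 RPM in GIRK1, and differed from eGFP by 1.26 ± 0.27 (adjusted p = 0.0793). SAMD9L, with 0 reads in eGFP and 37 and 53 in GIRK1, had a mean 7.22 times the higher eGFP floor (edgeR, adjusted p = 0.0435). XAF1, with 0 reads in all controls and 25 and 93 in GIRK1, had a mean 9.60 times that floor and was not called (edgeR, adjusted p = 0.0793). The log2 differences of GBP1 (2.24), APOL6 (2.04), APOL3 (2.74) and APOL1 (3.03) lie below the median of this list and above that of the interferon-γ list. Those of GBP2 (0.95) and GBP3 (0.56) lie below both medians, and GBP5, with 0 reads in eGFP, is not placed. No test of these differences was made, and the lists do not separate responses to interferon-γ from those to type I interferons.

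**Figure D5:**
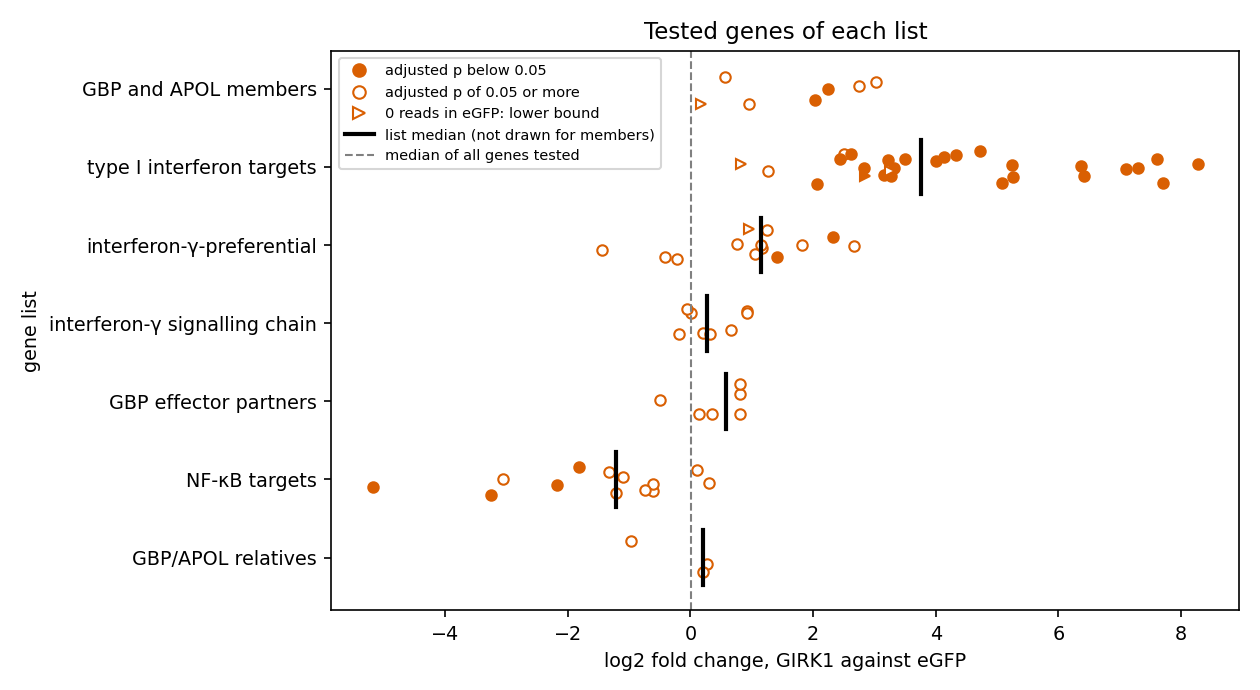
Log2 fold change of GIRK1 against eGFP for every tested gene of the GBP and APOL members and of 6 further lists (horizontal axis), with filled symbols for an adjusted p below 0.05, triangles for lower bounds where eGFP had 0 reads, black bars for list medians with genes at their bounds and a dashed line for the median of all genes (0.02). Type I interferon targets have the highest median (3.75), and NF-κB targets the lowest (−1.21). A triangle places the GIRK1 mean over the higher eGFP floor, which for GBP5 is not a lower limit.

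Genes listed here with guanylate-binding proteins, as effectors or as related factors such as IRGQ, were not called by the main test. Of 11 such genes, 6 were tested against eGFP, with a median of 0.58 and 0 called by edgeR, 2 at an unadjusted p below 0.05 and 0 by DESeq2, and 1 was called without eGFP replicate 1. Against the 3 controls 0 were called by edgeR, 4 were at an unadjusted p below 0.05, DESeq2 called 1, and 2 were called without eGFP replicate 1. CASP4, the caspase that senses bacterial lipopolysaccharide on GBP-coated bacteria, was at 140 RPM in wt replicate 2, 137 and 149 RPM in eGFP, and 195 and 180 RPM in GIRK1. It differed from eGFP by 0.35 ± 0.20 (adjusted p = 0.38). GSDMD, the pore-forming gasdermin D, was at 29.1 RPM in wt replicate 2, 24.2 and 26.8 RPM in eGFP, and 52.8 and 39.3 RPM in GIRK1, and differed by 0.81 ± 0.24 (adjusted p = 0.151). Both genes were above every control in both GIRK1 libraries, as were 21.6% of 11389 genes tested, and both had 0 reads in wt replicate 1. IL18, a cytokine released through gasdermin pores, was at 351 RPM in wt replicate 2, 373 and 312 RPM in eGFP, and 235 and 266 RPM in GIRK1, below every control, with a difference of −0.49 ± 0.23 (adjusted p = 0.304). IRGQ had 25 and 14 reads in GIRK1 and differed by 0.81 ± 0.73.

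NF-κB can also contribute to GBP1 induction by inflammatory cytokines, and its targets were placed beside the members as well. Of 14 such genes, 13 were tested, 4 fell against eGFP (IL1A, IL1B, IL8 and CCL20) and 0 rose, with a median of −1.21, and against wt replicate 2 0 were called by edgeR, with 6 at an unadjusted p below 0.05 and 2 by DESeq2. Over all genes, 99 of 11779 were called lower against eGFP. Against the 3 controls 1 of 12 tested was called lower, IL1A, beside 47 of 11389 genes. IL1B, a pro-inflammatory cytokine, was at 17.1 RPM in wt replicate 2, 190 and 99.4 RPM in eGFP, and 4.50 and 3.77 RPM in GIRK1. It was lower by −5.18 ± 0.43 than in eGFP (adjusted p = 0.00372) and differed by −2.02 from wt replicate 2 (adjusted p = 0.292). IL8, the neutrophil chemokine now named CXCL8, was at 16.7 RPM in wt replicate 2, 63.0 and 25.5 RPM in eGFP, and 5.67 and 3.96 RPM in GIRK1, lower by −3.25 ± 0.51 than in eGFP (adjusted p = 0.0359). SOD2, a mitochondrial superoxide dismutase, differed by 0.30 ± 0.25 and NFKBIA, the inhibitor of NF-κB, by −0.61 ± 0.27.

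Markers of other cell types that could express these genes were counted beside the members. Of 9 leukocyte markers, 4 reached 3 reads in any library, and PTPRC, CD3D, CD3E, MS4A1 and LYZ had 0 reads in every library. Their summed level was 35.2 and 31.0 RPM in GIRK1, below the 45.8 and 44.1 RPM of eGFP and above the 22.3 RPM of wt replicate 2, most of it from CD14 and CD68. Of 5 endothelial markers, 3 reached 3 reads, CDH5 and VWF had 0 reads, and the sum was 2.52 and 0.774 RPM in GIRK1 against 2.87 to 3.71 RPM in the 3 controls. Of 6 fibroblast markers, 4 reached 3 reads, and the sum was 31.9 and 33.5 RPM in GIRK1, 10.7 and 8.60 RPM in eGFP and 13.7 RPM in wt replicate 2. In GIRK1 most of this sum came from DCN, with 300 and 261 reads in GIRK1, 4 and 38 in eGFP and 164 in wt replicate 2. The other fibroblast markers did not share this pattern. COL1A1 overlapped between groups (4.59 and 8.02 RPM in GIRK1, 9.17 and 4.49 RPM in eGFP). PDGFRB, near the floor, was below every control in both GIRK1 libraries. COL3A1 and LUM had 0 reads in GIRK1, and PDGFRA had 0 reads throughout. The part of these markers in the differences of GBP1 and the APOL genes was not tested. Basal epithelial markers summed to 9491 and 10118 RPM in GIRK1, within the 8288 to 16469 RPM of the 3 controls, although TP63 had 0 reads in every library.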

How the data were processed

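RNA from cells labelled MCF10A was made into 6 Ion AmpliSeq Transcriptome libraries and sequenced on an Ion S5 XL. Using the Ion Torrent suite, the authors aligned reads to the kit's human transcriptome reference and deposited, per amplicon, whole-number counts without normalization, with an RPM value that is the count scaled to the library's total. Of 20812 amplicons, 10 are spike-in controls with 0 reads, which were left out, and the remaining 20802 each carry 1 gene symbol. Groups and replicates were taken from the labels. The members and gene lists were chosen with earlier results of these data known, so no list is independent evidence.

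Counts of all genes in 5 libraries (wt replicate 1 left out) were tested with edgeR 4.0.16 (limma 3.58.1, R 4.3.3): TMM, filterByExpr, glmQLFit and glmQLFTest on group means, Benjamini-Hochberg adjustment over all genes tested and a threshold of 0.05. A second fit joined eGFP and wt replicate 2. Standard errors were derived from the F value. Ratios of pooled reads and shares have exact 95% intervals. Depth sets a floor of 3 reads, between 0.187 and 1.20 RPM. The procedure was tested on simulated data first. Alternatives were DESeq2 1.42.0 (size factors or test), total reads, other filters, a replicate block, all 6 libraries, 4 libraries and leaving out each library. Named genes were all members, the relatives and the interferon-γ chain, and in each further list the 2 genes with most reads and the 2 with the largest difference from eGFP, with TAP1, PSMB9, NLRC5, PSMB8, IL1A and CCL20 named outside this rule as members of counts of 5 or fewer. APOLD1 and SOCS1 were not analysed here, and 1 gene of the interferon-γ chain and 1 leukocyte marker are not reported here, so the counts and medians of those lists leave them out. The forward, reverse and coverage columns were not used.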

Additional observations from a re-analysis of the deposited data

Results flagged for a closer look

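In the library labelled wt replicate 1, which entered no comparison, 4 of the genes named by the rule, markers of cell types left aside, lay above all 3 controls with counting intervals that did not overlap. They were ATL2 at 59.06 RPM (highest control 44.9 RPM), JAK1 at 110.5 RPM (66.5 RPM), JAK2 at 15.56 RPM (3.55 RPM) and PTPN6 at 35.11 RPM (14.9 RPM). Counting intervals were likewise apart for 5 further genes of the lists, named after their values were seen, HLA-DRB1, ISG15, STAT2, IRF7 and PYCARD. None of the 10 GBP and APOL members was among these genes. GBP2, with 10 reads, was the only member counted in that library.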

How the results depend on the processing

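Depth limits what can be said of GBP4, GBP5, APOL2 and APOL4, and 2 libraries per group limit every p. DESeq2 size factors, total reads and the fit of only the eGFP and GIRK1 libraries left each member count they were run on as it was. Against eGFP, where 2 members were called, the count was 3 without a filter, by DESeq2 and with the replicate block, 0 with all 6 libraries and 1 to 6 with 1 library left out. Against wt replicate 2, where 0 were called, it was 2 without a filter, 2 by DESeq2, 1 with the replicate block and 0 to 4 with 1 library left out. Against the 3 controls, where 3 were called, it was 0 with all 6 libraries and 0 to 6 with 1 library left out. Fewer libraries remain in the last of these, and the cause of the others was not tested. The share of all genes called higher moved as well. Against eGFP it was 0.756% in the main fit, 2.06% without a filter, 1.93% by DESeq2, 1.66% with the replicate block and 0% with all 6 libraries. Against wt replicate 2 it was 0.195%, 0.487%, 0.705% and 0.424% in the first 4 of these. Against the 3 controls it was 0.799% in the main fit and 0.0606% with all 6 libraries. The difference of GBP3 from eGFP ranged from −0.082, without eGFP replicate 2, to 1.48, without eGFP replicate 1. Of 224 values of single members under an alternative, 181 kept their direction and side of the threshold, 25 came to pass it, 17 ceased to and 1 reversed.

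Over all genes, 89 were called higher and 99 lower against eGFP. The counts were 196 and 353 with the replicate block, 313 and 552 without a filter, 227 and 450 by DESeq2, 57 and 50 with at least 10 reads in every library, and 0 and 0 with all 6 libraries. Against wt replicate 2 they were 23 and 4, and 50 and 27 with the replicate block, 74 and 59 without a filter and 83 and 45 by DESeq2. Against the 3 controls they were 91 and 47, and 232 and 326 with the block, 182 and 192 without a filter, 339 and 467 by DESeq2 and 7 and 0 with all 6 libraries. Replicate numbers are shared across groups. Deviations of same-numbered libraries correlated at r = 0.19 (eGFP and GIRK1), 0.13 (eGFP and wt) and 0.03 (GIRK1 and wt) over 9091 genes. Whether same-numbered libraries share more than a number was not tested. With the replicate block, GBP1, APOL3 and APOL6 were called against eGFP, with an adjusted p of 0.0479 for APOL3 (edgeR).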
